A study of Mus musculus with 6 samples.

Results

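The SREBP system is the set of genes through which animal cells read their sterol level and set lipid synthesis. The 8 genes described here were taken by symbol from the count tables, 8 of 19865 symbols, all of which were found: the transcription factors Srebf1 and Srebf2, the escort protein Scap, the retention proteins Insig1 and Insig2, the proteases Mbtps1 and Mbtps2, and Mylip, a ubiquitin ligase that marks lipoprotein receptors for breakdown. They were measured in primary lung fibroblasts from Col1a2-GFP Transgenic C57BL/6 mice, which carry a green reporter under the Col1a2 promoter. The cells were transduced by retrovirus with a control vector or with trSrebf1, an active form of Srebf1c, each marked by the human receptor hLNGFR, and were placed in the airways of C57BL/6 mice on day 5 after 2 mg/kg of bleomycin. Doxycycline was given on day 7, which the labels record for both groups, and live lineage-negative cells positive for GFP and LNGFR were sorted on day 10, so that every library came from donor cells in an injured lung. There were 3 control and 3 trSrebf1 libraries of 10000 cells each, read by 3'SAGE-seq, which counts short tags near the 3' end of polyA RNA. The labels do not say whether replicates came from separate mice or cultures, so the p-values speak only of the scatter among these 6 libraries, which may be technical.

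SREBP proteins are made as precursors in the membrane of the endoplasmic reticulum (ER), bound to Scap. When sterols are plentiful, Insig proteins hold Scap in the ER. When sterols are scarce, Scap carries the precursor in COPII vesicles to the Golgi, where the site-1 and site-2 proteases (Mbtps1 and Mbtps2) release the part that enters the nucleus and switches on lipid genes, Insig1 among them. An active form such as trSrebf1 lacks the membrane part and does not need this release. The comparison asks what such a form does to the genes that normally govern it.

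Tags of Srebf1, Srebf2 and Insig1 rose in trSrebf1 cells. The stretches before their starts are shown because the sequence there is where factors that bind promoters act. Tags of Srebf1 may come from the endogenous or the introduced transcript, so whether transcription from its own promoter rose is not known. RefSeq (GRCm38.p6) gave a promoter for 8 of 8 members, 13 starts in all. The 250 bases before each start were searched on both strands for TCACNCCAC (a sterol response element core), CACGTG (an E-box), CCAAT (the NF-Y box), GGGCGG (the Sp1 box) and TCACCC, a shorter sterol element added after the sequences were seen, which can overlap the first motif. Capitals mark every match, on either strand, and bases that any annotated exon covers were left out. Only stretches of members that rose are printed, and for Srebf1 only the start that held TCACCC, which its other starts lacked. Whether a match goes with a rise was not tested. The stretches lie at chr11:60210472-60210721 on the minus strand for Srebf1 (the most downstream of its 3 starts), chr15:82147019-82147180 on the plus strand for Srebf2 and chr5:28071162-28071362 on the plus strand for Insig1.
Srebf1: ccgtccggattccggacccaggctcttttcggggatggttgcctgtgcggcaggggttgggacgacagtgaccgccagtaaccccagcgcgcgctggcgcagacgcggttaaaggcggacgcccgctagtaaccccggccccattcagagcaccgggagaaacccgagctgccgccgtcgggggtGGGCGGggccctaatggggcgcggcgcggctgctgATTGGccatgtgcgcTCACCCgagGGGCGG
Srebf2: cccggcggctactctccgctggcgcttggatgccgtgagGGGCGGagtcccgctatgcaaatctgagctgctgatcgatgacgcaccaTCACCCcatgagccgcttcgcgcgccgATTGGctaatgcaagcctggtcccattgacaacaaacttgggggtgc
Insig1: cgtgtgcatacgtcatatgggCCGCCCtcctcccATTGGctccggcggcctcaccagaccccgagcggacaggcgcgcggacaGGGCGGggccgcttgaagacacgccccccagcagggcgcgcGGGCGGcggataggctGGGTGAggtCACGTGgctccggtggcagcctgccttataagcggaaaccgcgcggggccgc

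The element TCACCC stood before the downstream start of Srebf1, 15 to 10 bases before it, before Srebf2 (162 to 157 bases) and, on the reverse strand, before Insig1 (110 to 105 bases). It was also found before 2 of the 3 starts of Insig2, and at none of the starts of Scap, Mbtps1, Mbtps2 or Mylip. Of 32851 promoter windows of the same length 13.8% held it. The longer TCACNCCAC matched none of the 13 windows, against 1.1% of all windows. An E-box lay 101 to 96 bases before Insig1 and before 1 of the 2 starts of Scap (6.0% of all windows). The NF-Y box (33.8% of all windows) and the Sp1 box (32.7%) were found at starts of members that rose and of members that did not pass the threshold. A match is a description of the letters, and the absence of one concerns this window only.

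**Figure D1:**
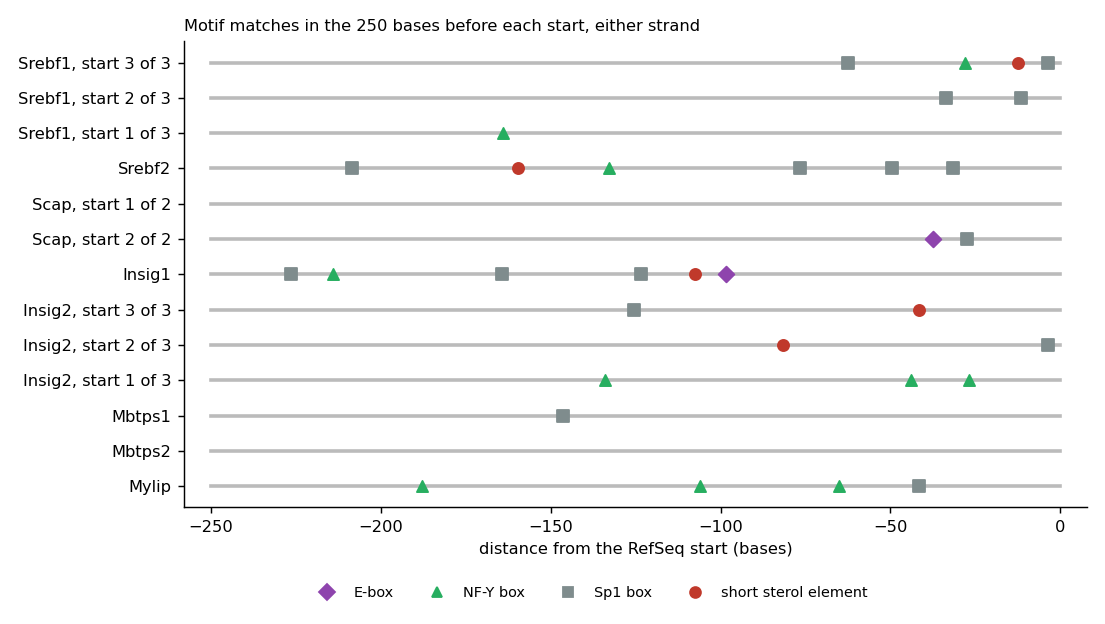
Motif matches in the 250 bases before each RefSeq start (x axis, distance from the start in bases) for the 13 starts of the 8 genes, with start 1 the most upstream of a gene. The short sterol element (red) was present before Srebf2, Insig1, 1 start of Srebf1 and 2 starts of Insig2.

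Libraries held 3675146 to 4688196 counts. Levels below are CPM, counts scaled to a common library size after correction by the trimmed mean of M-values (TMM). A total of 10194 genes were tested with edgeR's quasi-likelihood test, and the median log2 fold change of all of them was -0.01. Defining markers of the cells removed by the sort, where present among the deposited symbols, were at or near 0. Ptprc (which encodes CD45), Adgre1, Cd3e, Cd79a, S100a8 and Vwf were absent from those symbols, so their levels are not known. The summed level was 0.47 to 2.09 CPM in control and 0.45 to 2.02 in trSrebf1 libraries for 3 leukocyte markers (of 8 listed), and 1.17 to 1.80 and 0.76 to 2.05 for 5 endothelial markers (of 6), with Pecam1, which encodes CD31, at 0 in all trSrebf1 libraries. The 6 epithelial markers summed to 2.87 to 7.45 and 4.32 to 6.85 CPM, and the 5 erythroid markers to 0 to 0.70 and 0.25 to 1.36. Among the epithelial markers Cdh1 had 0, 1 and 0 counts in control and 14, 2 and 11 in trSrebf1 libraries. Mean levels of Epcam, Sftpc, Krt8, Krt18 and Ager were lower in trSrebf1 libraries. The 6 pericyte and smooth muscle markers summed to 107 to 122 CPM in control and 256 to 300 CPM in trSrebf1 libraries. Of these Cspg4 and Pdgfrb rose, Myh11 and Kcnj8 fell, and Mcam (0.93 and 0.66 CPM on average), which encodes CD146, and Rgs5 (0.09 and 0.08 CPM) were near 0. The 8 fibroblast markers summed to 29740 to 34943 CPM in control and 20915 to 23844 in trSrebf1 libraries, with 7 lower and Col1a1 not past the threshold. The lysosomal protease gene Ctsd took 0.860% to 0.953% of the counts in control and 6.53% to 6.81% in trSrebf1 libraries. The part of these shifts in the results below was not tested, other than by leaving out Ctsd. In bulk libraries, fewer cells with a transcript and less of it per cell cannot be told apart.

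Of the 8 genes 7 passed the filter on low counts, 3 of them rose (Srebf1, Srebf2 and Insig1), 0 fell and 4 did not pass the threshold. The 3 that rose are 42.9% of the tested members, where 17.2% of all tested genes were called higher, 13.0% lower and 30.2% in either direction. The same 3 were those whose groups did not overlap, a property shared by 43.4% of all tested genes, and their share of 42.9% lies near it. At an unadjusted p under 0.05, too, 0 members were lower. The retention gene Insig1 and the factors themselves moved, and no change was detected for the escort gene, the testable protease gene, the other Insig gene or Mylip.

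**Figure D2:**
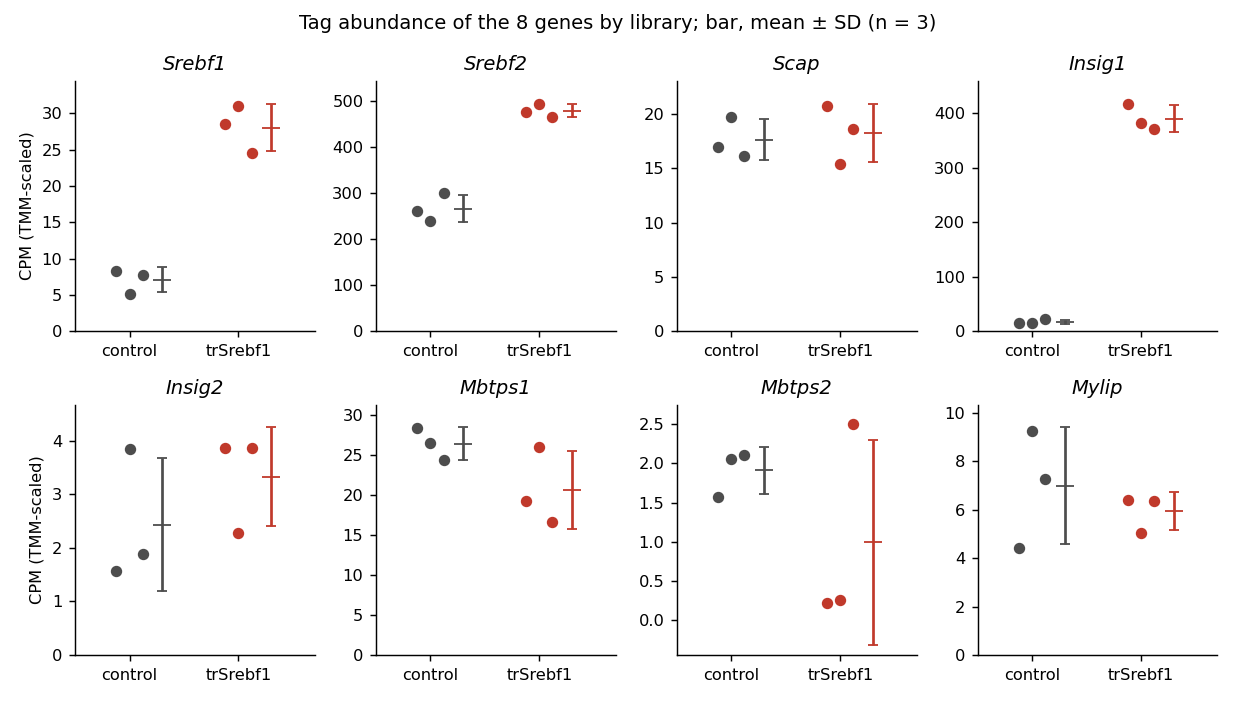
CPM of the 8 genes in each library (points) with the mean ± SD of 3 libraries beside them, for control (grey) and trSrebf1 (red), each panel on its own linear axis. The groups are apart for Srebf1, Srebf2 and Insig1 and overlap for the other 5 genes.

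Among the factors, Srebf1 (ENSMUSG00000020538, chr11:60199089-60222581, minus strand) drives mainly fatty acid synthesis. Its level was 8.35, 5.14 and 7.75 CPM in the control libraries and 28.5, 31.1 and 24.5 CPM in the trSrebf1 libraries. Every trSrebf1 library thus lay above every control library, and edgeR put the rise at 1.98 on the log2 scale (SE 0.23, adjusted p = 2.88e-06), or 3.94-fold. The 3' end of the truncated transgene is not given in the sources used here, so its transcript may or may not carry the counted tags. Endogenous and introduced transcripts therefore cannot be told apart. A last exon of Srebf1 also shares 109 bases with Rai1, which lies on the other strand.

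Srebf2 (ENSMUSG00000022463, chr15:82147181-82205379, plus strand) encodes the factor that drives mainly cholesterol synthesis and is not the introduced gene. It stood at 260, 239 and 299 CPM in control and 475, 493 and 466 CPM in trSrebf1 libraries. The groups did not overlap, and the spread within trSrebf1 (SD 14.1 CPM, n = 3) was small beside the difference. The log2 fold change was 0.84 (SE 0.11, 95% interval 0.61 to 1.08, adjusted p = 1.14e-05, edgeR), a rise of 1.80-fold. No other gene overlaps its last exons, and no near-identical 3' end was found. Over 15 alternative settings its log2 fold change ranged from 0.76 to 0.92 and that of Srebf1 from 1.79 to 2.11.

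The tags of the factors did not rise by the same amount, and those of Srebf1 cannot be assigned to the endogenous or the introduced transcript. The log2 ratio of Srebf1 to Srebf2 counts within a library, which does not depend on how libraries are scaled, was -4.94, -5.51 and -5.25 in control and -4.06, -3.98 and -4.24 in trSrebf1 libraries. It was higher in 3 of 3 trSrebf1 libraries, by 1.14 on average (exact two-sided permutation p = 0.1, the smallest that 3 against 3 libraries allow, and 0.1 adjusted over 3 ratios).

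The largest change among the 8 genes was that of Insig1 (ENSMUSG00000045294, chr5:28071363-28078662, plus strand), which holds Scap in the ER and is itself a known SREBP target. Its counts were 58, 59 and 94 in control and 1950, 1513 and 1632 in trSrebf1 libraries, or 15.1, 15.1 and 22.1 CPM against 417, 382 and 371 CPM. The mean went from 17.4 ± 3.997 to 390 ± 24.2 CPM (SD, n = 3 each). The log2 fold change was 4.47 (SE 0.15, 95% interval 4.16 to 4.79, adjusted p = 5.13e-13, edgeR), a rise of 22.2-fold, with a range of 4.38 to 4.67 over 15 alternatives.

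Insig2 (ENSMUSG00000003721, chr1:121304353-121332589, minus strand) encodes the second retention protein, which acts on Scap in the same way. It was sparse, with 6, 15 and 8 counts in control and 18, 9 and 17 in trSrebf1 libraries. Control replicate 2 lay as high as the higher trSrebf1 libraries, at 3.85 CPM, and the groups overlapped. The log2 fold change was 0.46 (SE 0.45, adjusted p = 0.492, edgeR) with a 95% interval of -0.49 to 1.42, which includes both a clear rise and a modest fall. Over 14 alternatives the value ranged from 0.24 (without control replicate 1, adjusted p = 0.774) to 0.94 (without control replicate 2, adjusted p = 0.229), and it passed the threshold in none of them.

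The 2 retention genes can be compared directly within a library. The log2 ratio of Insig1 to Insig2 was 3.17, 1.94 and 3.48 in control and 6.72, 7.32 and 6.54 in trSrebf1 libraries. The groups did not overlap, and the mean ratio was higher by 3.998 in trSrebf1 libraries (exact two-sided permutation p = 0.1, adjusted p = 0.1 over 3 ratios). Summed over the group, Insig1 and Insig2 had 211 and 29 counts in control and 5095 and 44 counts in trSrebf1 libraries. Most Insig tags were thus Insig1 in both groups, and almost all of them in trSrebf1 cells.

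**Figure D3:**
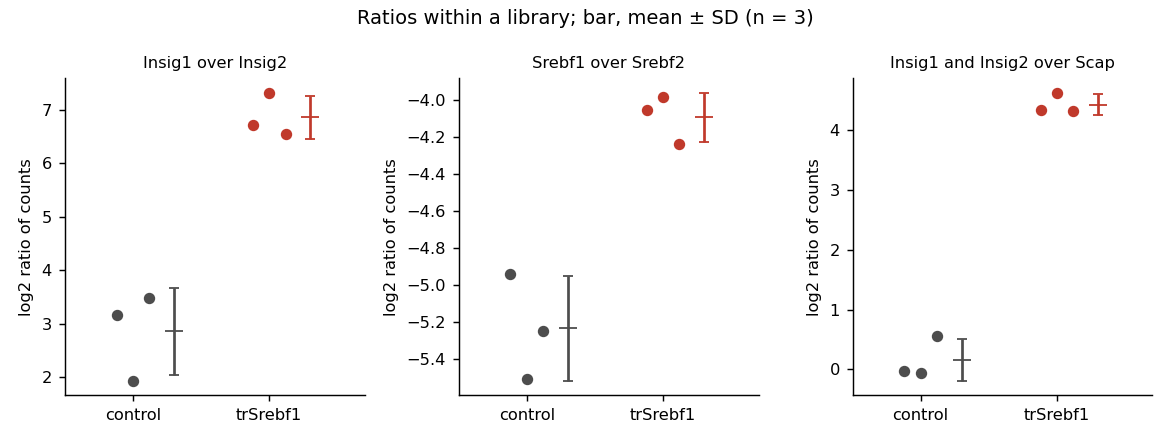
Log2 ratio of counts within each library (points, with 0.5 added to each count) for 3 pairs of genes, with the mean ± SD of 3 libraries. All 3 ratios are higher in every trSrebf1 library than in any control library.

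Scap (ENSMUSG00000032485, chr9:110333288-110384950, plus strand) binds the SREBP precursor and carries the sterol sensor. Its level was 17.0, 19.8 and 16.2 CPM in control and 20.8, 15.4 and 18.6 CPM in trSrebf1 libraries. Both groups covered about the same range, and no difference was detected (log2 fold change 0.06, SE 0.20, 95% interval -0.37 to 0.48, adjusted p = 0.871, edgeR). The sign of this value turned under 4 of 15 alternatives. A last exon overlaps 5830462I19Rik on the opposite strand by 117 bases.

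With Insig1 higher and no change found for Scap, the balance between retention and escort transcripts shifted. The log2 ratio of summed Insig counts to Scap counts was -0.02, -0.06 and 0.56 in control and 4.34, 4.63 and 4.32 in trSrebf1 libraries. Control replicates 1 and 2 thus held close to equal numbers, and control replicate 3 more Insig than Scap tags. The mean ratio was higher by 4.27 in trSrebf1 libraries (exact two-sided permutation p = 0.1, adjusted p = 0.1). These are ratios of tags, and protein levels were not measured.

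Mbtps1 (ENSMUSG00000031835, chr8:119508156-119558735, minus strand) encodes the site-1 protease, which makes the first cut in the Golgi. It was measured at 28.4, 26.4 and 24.4 CPM in control and 19.3, 26.0 and 16.6 CPM in trSrebf1 libraries. The trSrebf1 libraries 1 and 3 lay below all controls, and replicate 2 lay among them. The log2 fold change was -0.36 (SE 0.20, 95% interval -0.77 to 0.05, adjusted p = 0.184, edgeR). It stayed below 0 in all 15 alternatives, from -0.55 to -0.22, with adjusted p from 0.0555 (without trSrebf1 replicate 2) to 0.497 (without trSrebf1 replicate 3).

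Mbtps2 (ENSMUSG00000046873, chrX:157535371-157598715, minus strand) encodes the site-2 protease, which makes the second cut, within the membrane. Its counts were 6, 8 and 9 in control and 1, 1 and 11 in trSrebf1 libraries, too few to pass the filter. The trSrebf1 libraries disagreed among themselves, replicates 1 and 2 lying under all controls and replicate 3 above them. The summed counts, 23 and 13, give a log2 ratio of -0.94 with an exact 95% interval of -2.05 to 0.10 for counting error alone, as PCR copies of a tag carry no identifier and are not independent. With no filter, edgeR gave -0.92 (SE 0.69, adjusted p = 0.463), and the ratio of mean CPM moved from -0.95 to -3.03 on the log2 scale without trSrebf1 replicate 3. The last exon of 1 transcript contains exonic sequence of Yy2 on the same strand, so the value is uncertain.

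Mylip (ENSMUSG00000038175, chr13:45389742-45412022, plus strand) is induced by the sterol-activated liver X receptors (LXR) and tags lipoprotein receptors with ubiquitin. It stood at 4.44, 9.24 and 7.28 CPM in control and 6.42, 5.05 and 6.36 CPM in trSrebf1 libraries. The trSrebf1 values all fell inside the control range. The log2 fold change was -0.23 (SE 0.32, 95% interval -0.90 to 0.44, adjusted p = 0.642, edgeR), and without control replicate 2 it was 0.01 (adjusted p = 0.984).

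**Figure D4:**
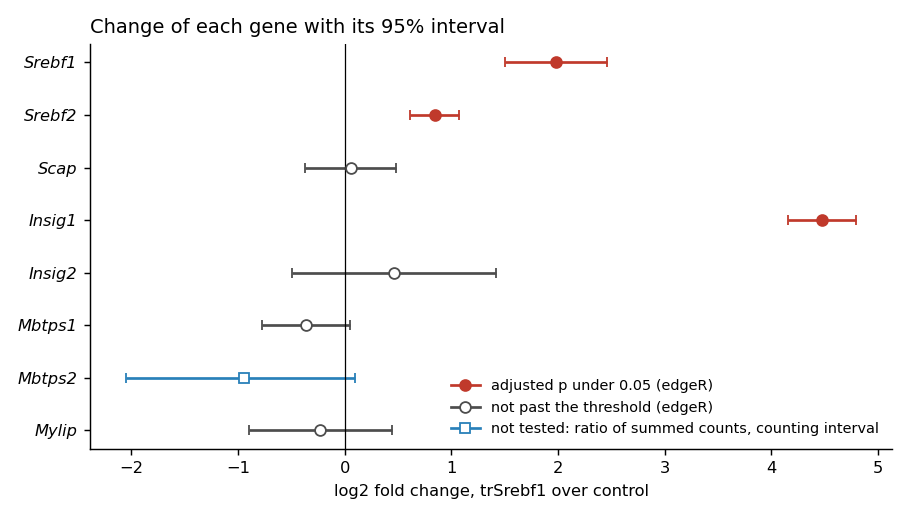
Log2 fold change of trSrebf1 over control for each gene, with its 95% interval (edgeR for 7 genes, an exact counting interval for Mbtps2). The intervals of Srebf1, Srebf2 and Insig1 lie above 0 and the other 5 include it.

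The genes nearest to a member in their pattern over the 6 libraries were found by the Euclidean distance of centred log2 CPM among 3773 genes with a mean of 20 CPM or more over all 6 libraries. Those nearest to Srebf1 were Fdps (distance 0.18), a mevalonate pathway enzyme, Lpcat3 (0.20), Map7d1 (0.31), Rhobtb1 (0.36) and Acaca (0.36), the acetyl-CoA carboxylase of fatty acid synthesis. Fdps and Acaca are uncertain, because annotated copies share most of their 3' ends. Nearest to Insig1 were Mmp9 (0.28), a gelatinase, Tm7sf2 (0.36), a sterol reductase, Cilp (0.57), Mtfp1 (0.64) and Fasn (0.65), the fatty acid synthase. The 3' end of Tm7sf2 shares sequence with Vps51. The genes nearest to Insig2, namely Trim33 (0.43), Emd (0.45), Sspn (0.46), Klf13 (0.52) and Myo1e (0.53), did not pass the threshold either, and Emd has annotated copies of its 3' end. The mean in control alone was under 20 CPM for all 5 neighbours of Srebf1, for Mmp9 (2.05 CPM), Cilp (12.3 CPM) and Mtfp1 (18.8 CPM) beside Insig1, and for Trim33 (18.9 CPM), so that these entered through their higher trSrebf1 level and the distances are a description only.

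Genes downstream of SREBP are given for scale. All 11 listed fatty acid targets rose (median log2 fold change 2.74), the largest rises being those of the desaturase Scd1 (4.98, SE 0.13) and the acetyl-CoA synthetase Acss2 (4.60, SE 0.30). The 3' end of Acss2 shares 114 bases with Acss2os. Of 19 tested cholesterol synthesis targets 17 rose and 0 fell by edgeR's adjusted p (median 1.73), with Mvk alone lower at an unadjusted p under 0.05. Mvk (-0.28, SE 0.11, adjusted p = 0.0828) did not pass edgeR's threshold, but passed it as lower with library sizes from total counts (0.0248) or the upper quartile (0.0317) and when control replicate 2 was dropped (0.0268). By point estimate, the rise of Insig1 (4.47) was exceeded by Scd1 and Acss2 and lay above that of every cholesterol synthesis target (at most 4.39). The edgeR interval of Insig1 (4.16 to 4.79) overlapped those of Scd1 (4.71 to 5.24), Acss2 (3.97 to 5.24) and Tm7sf2 (4.11 to 4.67). Their order is therefore not settled, and Acss2 had only 5, 5 and 3 counts in the control libraries. The point estimate of Srebf2 lay below that of every fatty acid target, the smallest of which rose by 1.51.

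A further 8 lists held 86 genes whose products work with the SREBP system, of which 80 were tested. Of these 17 (21.2%) were higher and 14 (17.5%) lower, beside 17.2% and 13.0% of all tested genes, and their median log2 fold change was 0.08. No test compared these shares. Of the 31 calls 17 held under every alternative run.

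**Figure D5:**
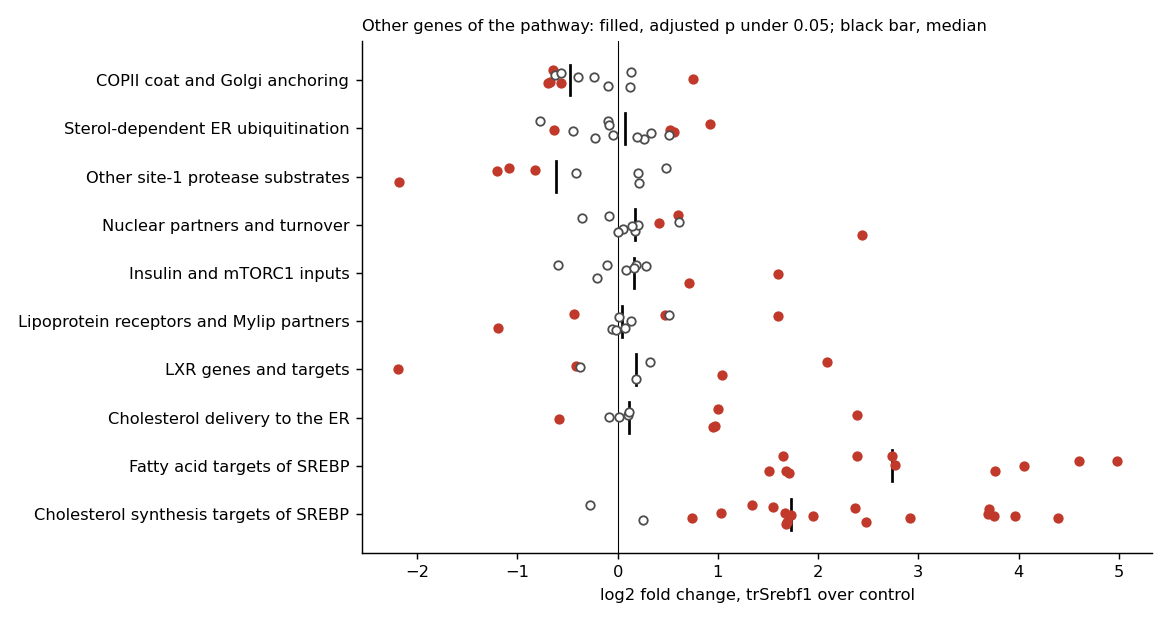
Log2 fold change of each tested gene (points; filled where the adjusted p was under 0.05) in 8 lists of partner genes and 2 lists of SREBP targets, with the median of each list as a black bar. Target lists lie to the right of 0, with medians of 2.74 and 1.73, while the partner lists have medians between -0.62 and 0.18.

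The COPII coat carries Scap and its cargo from the ER. Of 12 tested coat and anchoring genes 4 were lower and 1 higher, with a median log2 fold change of -0.48. Sar1a, the GTPase that starts coat assembly, fell by 0.56 (SE 0.15, adjusted p = 0.00637, edgeR), from 54.2 to 36.6 CPM. The cargo-binding subunit Sec24d fell by 0.64 (SE 0.18), a call lost without control replicate 1 (adjusted p = 0.0506). The outer coat gene Sec13 fell by 0.68 (SE 0.20), a call lost when control 2 (adjusted p = 0.0740), trSrebf1 2 (0.0785) or trSrebf1 3 (0.0836) was dropped. Sec24a fell by 0.69 (SE 0.22), lost on dropping control 1 (0.0845), control 2 (0.0949), trSrebf1 2 (0.0726) or trSrebf1 3 (0.102). Sec24b rose by 0.75 (SE 0.25, adjusted p = 0.0320), a call that was lost whichever library was left out (0.0520 to 0.106). Among COPII genes only the call of Sar1a held under all 15 alternatives.

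Insig proteins and the cholesterol synthesis enzymes they bind are removed by ubiquitination at the ER membrane. Of 14 tested genes listed with that route 3 were higher and 1 lower, with a median of 0.07. The list includes Spring1, which is not itself a ubiquitination gene. Nploc4, a cofactor of the extraction ATPase, rose by 0.93 (SE 0.24, adjusted p = 0.00685, edgeR), and Tmub1, an ER ubiquitin-like protein, fell by 0.63 (SE 0.15). Both held under all 15 alternatives. The ATPase gene Vcp rose by 0.57 (SE 0.18), lost on dropping control 3 (adjusted p = 0.131) or trSrebf1 1 (0.0806) and with total counts (0.0527). Faf2, which recruits that ATPase, rose by 0.52 (SE 0.17), lost on dropping control 1 (0.105), control 3 (0.0785), trSrebf1 1 (0.103) or trSrebf1 2 (0.0778), and with upper-quartile factors (0.0627) or total counts (0.0784). The ubiquitin ligase genes Rnf139 (-0.22, adjusted p = 0.175) and Rnf145 (-0.10, adjusted p = 0.806) did not pass.

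The site-1 protease also cuts other membrane proteins, here Gnptab and factors anchored in the ER membrane. Of 8 such substrates 4 were lower and 0 higher by edgeR's adjusted p (Atf6b alone was higher at an unadjusted p under 0.05), with a median of -0.62, the lowest of the 8 partner lists. Creb3l1, a factor for secretory and matrix genes, fell by 1.08 (SE 0.19, adjusted p = 2.14e-04, edgeR), from 28.4, 25.4 and 30.3 CPM in the control libraries to a mean of 13.3 CPM. Creb3l3 fell by 2.18 (SE 0.43), from a mean of 8.18 to 1.82 CPM, on 7, 13 and 3 counts in the trSrebf1 libraries, and by 2.86 without trSrebf1 replicate 2 (adjusted p = 1.53e-04). Creb3l4 fell by 1.20 (SE 0.38), lost on dropping control 2 (adjusted p = 0.0986), trSrebf1 1 (0.0655) or trSrebf1 3 (0.0868) and with DESeq2 (0.0564). Creb3 fell by 0.82 (SE 0.28), lost on dropping control 1 (0.0973), control 2 (0.129), trSrebf1 1 (0.149) or trSrebf1 2 (0.0572), with DESeq2 (0.0564) and with the replicate block (0.0581). Last exons of Creb3 share 133 bases with Gba2 on the other strand. The stress sensor Atf6 (0.21, SE 0.12, adjusted p = 0.198) and Atf6b (0.48, SE 0.19, adjusted p = 0.0648) did not pass.

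In the nucleus SREBP acts with NF-Y and Sp1 and is removed after phosphorylation and ubiquitination. Of 11 tested genes 3 were higher and 0 lower. Lpin1, a phosphatidate phosphatase that can also restrain nuclear SREBP, rose by 2.44 (SE 0.32, adjusted p = 1.32e-05, edgeR), from a mean of 2.81 to 15.4 CPM. Gsk3b, a kinase that marks nuclear SREBP for removal, rose by 0.42 (SE 0.11). The acetyltransferase gene Ep300 rose by 0.60 (SE 0.19), lost on dropping control 1 (adjusted p = 0.0621), trSrebf1 1 (0.0979) or trSrebf1 3 (0.0584) and with total counts. The NF-Y and Sp1 genes Nfya (0.18), Nfyb (0.62), Nfyc (-0.35) and Sp1 (0.05) did not pass, with adjusted p from 0.0755 to 0.906.

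Insulin signalling raises SREBP activity through Akt and mTORC1. Akt2 rose by 1.60 (SE 0.10, adjusted p = 2.54e-09, edgeR), from a mean of 577 to 1752 CPM, but its 3' end has a copy in the pseudogene Akt2-ps over 500 bases and the value is uncertain. Rptor, a subunit of mTORC1, rose by 0.71 (SE 0.24), lost in 9 of 15 alternatives, among them dropping control 1 (adjusted p = 0.0753), control 3 (0.125), trSrebf1 1 (0.0989) or trSrebf1 2 (0.0760). The other 7 of 9 tested genes of this list did not pass.

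Beside Mylip, 10 genes of lipoprotein receptors and of the ligase's partners were tested, with 2 higher and 2 lower. Lrp8, a receptor that Mylip can mark, rose by 1.60 (SE 0.29, adjusted p = 3.24e-04, edgeR), from a mean of 4.07 to 12.4 CPM, while the related Vldlr did not pass (0.13, SE 0.14, adjusted p = 0.523). Ube2d1, a ubiquitin-conjugating enzyme of the family that serves Mylip, rose by 0.48 (SE 0.11). Sort1, a sorting receptor, fell by 1.20 (SE 0.37), lost on dropping control 2 (adjusted p = 0.107), trSrebf1 1 (0.0566) or trSrebf1 2 (0.0549) and with DESeq2 (0.0507).

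Of 7 tested LXR genes and targets, the group to which Mylip belongs by its control, 2 were higher (Lpcat3 by 2.09 and Pltp by 1.04) and 2 lower (Apoe at -2.19 and Nr1h3 at -0.41 on the log2 scale). Last exons of Lpcat3 and Pltp overlap exons of Emg1 and Ctsa on the opposite strand. The call of Nr1h3 (adjusted p = 0.0463, edgeR) was lost in 7 of 15 alternatives, among them dropping control 1 (0.222), control 3 (0.0600), trSrebf1 1 (0.118) or trSrebf1 3 (0.151). Abca1, the cholesterol exporter that LXR induces, did not pass (0.33, SE 0.19, adjusted p = 0.212). Targets of LXR thus did not move in 1 direction, and the value of Mylip lay between them.

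Cholesterol reaches the ER sensor through carriers, and 4 of 9 tested genes of that route were higher and 1 lower. Stard4, a soluble sterol carrier, rose by 2.39 (SE 0.17, adjusted p = 2.54e-08, edgeR), from a mean of 45.3 to 237 CPM. Gramd1a, which moves cholesterol from the plasma membrane to the ER, rose by 1.00 (SE 0.11), and Npc2, a lysosomal sterol exporter, by 0.98 (SE 0.13). Gramd1b rose by 0.95 (SE 0.30), lost on dropping control 3 (adjusted p = 0.110), trSrebf1 1 (0.0758) or trSrebf1 3 (0.0571). Soat1, which esterifies cholesterol in the ER, fell by 0.58 (SE 0.16), lost without trSrebf1 replicate 3 (0.0618). Npc1, the membrane partner of Npc2, did not pass (-0.08, SE 0.29, adjusted p = 0.867).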

How the data were processed

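Tags of polyA RNA from sorted donor fibroblasts were deposited by the authors as raw counts, in whole numbers, with a table of gene symbols for each library. Bowtie2 2.2.5 and the build mm10 are named, with no role, per the submitters' processing notes. Which program counted tags, against which annotation and whether by strand, is not given in the sources used here, so genes with overlapping exons or near-identical 3' ends are uncertain. From these counts edgeR 4.0.16 in R 4.3.3 was run on all 6 libraries after filterByExpr (at least 10 counts, total at least 15), with TMM normalization, robust quasi-likelihood fits, the group as the only term, a prior count of 0.125 and Benjamini-Hochberg adjustment over all tested genes, with a threshold of 0.05. Each SE was obtained from the log2 fold change and the F statistic. Fits were tested on simulated data. Library pairs within a group differed by 4.91 to 9.22 times the chi-square that sampling gives, so none was treated as a copy.

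Coordinates and exon overlaps are from GENCODE M21 (GRCm38). The last 500 bases of transcripts were compared by blastn 2.17.0 at 95% identity over 50 bases or more. Promoters are from RefSeq. Members and lists were chosen with earlier results of these data known. Named genes were all members, the 3 called partners with the smallest p in each list, the 2 largest rises and the exceptions among targets, and the 5 nearest genes of Srebf1, Insig1 and Insig2. Sec24a, Sec24b, Faf2, Creb3, Sort1, Nr1h3, Gramd1b and Soat1 were added after their values were seen, as were partner and marker genes that did not pass. Alternatives were other factors, filters and tools (DESeq2 1.42.0, limma 3.58.1), a replicate block, leaving out Ctsd and leaving out each library. Protein sequences were not used here, and some genes of the lists are not reported here by name.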

Additional observations from a re-analysis of the deposited data

How the results depend on the processing

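The calls of Srebf1, Srebf2 and Insig1 held in all 15 alternatives, and 0 other members were called in any. All genes called higher numbered 1755, in a range of 1534 to 1977, and lower 1328, in a range of 1061 to 1649. The sign of Scap turned with upper-quartile factors (-0.03) and total counts (-0.015), and leaving out 1 library gave -0.04 to 0.17 (-0.019 without control replicate 3 and -0.042 without trSrebf1 replicate 1). For Mylip that range was -0.46 to 0.01 (0.014 without control replicate 2), and for Mbtps2 -3.03 to -0.47. Without 1 library the partner genes called higher numbered 11 to 17 (17 as reported) and lower 9 to 13 (14 as reported). Target genes called lower numbered 0 in the edgeR test as reported and 1 (Mvk) under total counts and likewise under upper-quartile factors, and 0 to 1 without 1 library. Deviations of same-numbered libraries from their group means correlated at -0.03, -0.25 and -0.21 over 3953 genes, none of them positive. Libraries of unlike number were not compared, so whether replicate numbers pair the libraries is not settled. With the replicate block 1646 genes were higher and 1174 lower, and Srebf1 (1.98), Srebf2 (0.85) and Insig1 (4.49) kept their calls. The 3 within-library ratios kept their direction in 8 of 8 alternatives. Insig2 and Mbtps2 had too few tags to show small changes. The block, strict filter, DESeq2, limma-voom and the fit without Ctsd were not run for the untested Mbtps2, and Insig2 gave no value under the filter of 5 CPM in 3 libraries.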
